A study of Mus musculus with 6 samples.

Results

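The corticotropin-releasing hormone (CRH) system was followed here through 6 genes, chosen by symbol among the 32531 gene rows of the count files: the ligands Crh, Ucn (urocortin 1) and Ucn3 (urocortin 3), the receptors Crhr1 and Crhr2, and the binding protein Crhbp. All 6 were found, and 5 passed the filter on low counts that left 16991 genes for testing. Ucn did not pass it. The RNA came from the hypothalamus of adult, untreated control mice of the line Lhx5-TRAP DT154, in which an EGFP-tagged ribosomal protein L10a (Rpl10a) is carried under the name of the transcription factor gene Lhx5. Polysomes carrying the tag were pulled down with antibodies to EGFP. The immunopurified RNA (IP, 3 libraries) was set against RNA that did not bind (unbound, 3 libraries, called input in the titles). All 6 libraries come from the same transgenic line. The sources used here give no strain, sex or number of animals for a library. Nothing says that replicates came from separate animals, so the p-values measure the spread between these libraries, which may be technical.

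CRH is the hypothalamic peptide that drives the release of corticotropin from the pituitary and so starts the hormonal response to stress. Neurosecretory CRH neurons lie in the paraventricular nucleus, whose formation depends on the transcription factors Sim1 and Otp. CRH and urocortin 1 bind the receptor CRHR1, all urocortins bind CRHR2, and both receptors couple mainly to Gs and cyclic AMP. CRH-binding protein holds CRH and urocortin 1 in an inactive complex. Urocortin 1 is best known from the Edinger-Westphal nucleus of the midbrain, and urocortin 3 from the perifornical hypothalamus and the medial amygdala.

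Promoter windows of 250 bases before the RefSeq start (GRCm38.p6) were matched for 5 of the 6 members, all but Crh. Those of Ucn and Ucn3 are shown because these related ligands differ in the cyclic AMP response element, the site of the factor CREB at the end of the receptors' signalling path, and because their levels differed most between libraries. Capitals mark this element, TGACGTCA, and sequences run 5′ to 3′ along the gene's strand, which is the minus strand for both.
Ucn, chr5:31138896-31139145: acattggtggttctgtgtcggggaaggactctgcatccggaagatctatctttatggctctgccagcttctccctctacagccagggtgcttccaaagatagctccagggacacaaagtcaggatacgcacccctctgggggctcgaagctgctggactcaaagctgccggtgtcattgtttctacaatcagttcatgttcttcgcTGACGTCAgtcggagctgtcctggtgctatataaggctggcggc
Ucn3, chr13:3945350-3945599: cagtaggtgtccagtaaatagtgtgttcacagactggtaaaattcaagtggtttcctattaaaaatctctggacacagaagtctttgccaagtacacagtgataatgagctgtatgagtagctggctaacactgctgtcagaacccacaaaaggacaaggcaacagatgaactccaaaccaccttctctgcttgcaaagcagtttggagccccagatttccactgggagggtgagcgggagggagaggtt
The element lies 44 to 37 bases before the start of Ucn. Searched on both strands, it occurred in 1.55% of the 32851 windows of this length. Its half-site TGACG, 2 copies of which make up the full element of Ucn, was in 17.8% of windows and, outside Ucn, in that of Crhbp only among the 5 members matched. In the GENCODE annotation the Crhbp window overlaps an exon and untranslated region of Crhbp itself. These matches describe letters in a window, not bound sites.

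The libraries held 32471045 to 46293837 gene counts. Levels are CPM, reads per 1000000 gene counts after TMM scaling of the libraries, and on this scale 1 read was worth between 0.0222 and 0.0321 CPM. The tagged cells could be checked by Lhx5, whose level was 56.7 to 70.5 CPM in the IP libraries and 1.86 to 6.28 CPM in the unbound ones. Unbound replicate 3 stood apart from the other unbound libraries. Its summed level over 17 regional genes of the hypothalamus was 38.2 CPM, against 298 and 192 CPM in unbound replicates 1 and 2 and 214 to 258 CPM in IP. Similar sums can hold different genes. Of the 13 that were tested, 4 were higher and 1 lower in IP at an adjusted p under 0.05 (30.8% and 7.69%). Over all genes tested the shares were 21.1% and 23.2%. Hcrt, the orexin gene, had no read in unbound replicate 3, while 13 midbrain and hindbrain markers summed to 355 CPM in it against 49.3 and 34.7 CPM. Choroid plexus markers summed to 304 CPM in it against 2615 and 2848 CPM, and 11 markers of the striatum and cortex to 75.4 CPM against 1337 and 1225 CPM. Each result on a tested member is therefore also given without this library.

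None of the 5 tested members passed the test of IP against unbound RNA. The 5 stood between -0.62 (Crhr2) and 0.60 (Ucn3) on the log2 scale, with a median of 0.03, and in each of them the IP and unbound libraries overlapped. Over all genes tested 44.3% passed, 21.1% as higher and 23.2% as lower in IP, with a median of -0.01, and the groups did not overlap for 55.9% (IP above unbound in 27.1%, below it in 28.7%). Tests were quasi-likelihood F-tests in edgeR, with p-values adjusted over all genes tested after Benjamini and Hochberg and a threshold of 0.05. At an unadjusted p under 0.05 the count of members was also 0, in edgeR, DESeq2 and limma-voom alike, each with all 6 libraries, its own usual scaling and no block. In 4 alternative edgeR fits a single one of the 5 fell below this unadjusted level. Crhr2 did so without unbound replicate 3 (log2 -1.14, adjusted p = 0.0830, edgeR, Benjamini-Hochberg) and Crhr1 under pan-neuronal scaling, which sets the libraries equal on the summed counts of 20 neuronal markers (log2 -0.68, adjusted p = 0.0806, the same edgeR test). Crhbp did so without unbound replicate 2 (log2 0.69, adjusted p = 0.0534, the same edgeR test) and with same-numbered libraries blocked (log2 0.49, adjusted p = 0.0801, the same edgeR test). None of the 4 passed after adjustment. Missing the threshold does not show equal levels. The 95% intervals of the differences, given below, reach beyond a log2 change of 1 for Crh, Crhr2 and Ucn3. In bulk RNA, fewer cells of a type and less RNA per cell cannot be told apart.

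**Figure D1:**
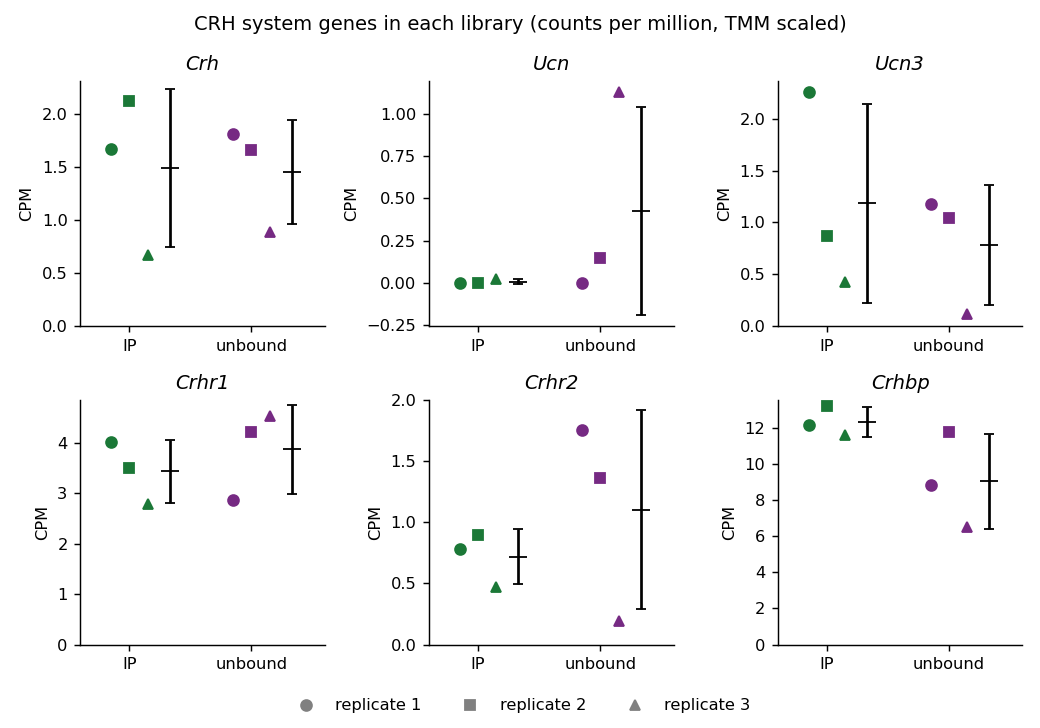
Level of each CRH system gene in CPM (TMM scaled), by fraction. Symbols mark the replicate number, and the dash with its bar gives mean and SD of 3 libraries. IP and unbound points overlap for all 6 genes, and Ucn lies near 0 except in unbound replicate 3, at 1.13 CPM.

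Among the ligands, Crh itself was scarce. It lies on chromosome 3 (19693401 to 19695396, minus strand, GENCODE on mm10). Its level was 1.66, 2.12 and 0.667 CPM in IP replicates 1 to 3, from 70, 66 and 30 reads, and 1.80, 1.66 and 0.888 CPM in unbound replicates 1 to 3, from 72, 57 and 37 reads. Both libraries numbered 3 were the lowest of their fraction, and the remaining IP and unbound libraries lay in the same range. The IP mean was 1.48 ± 0.74 CPM and the unbound mean 1.45 ± 0.49 CPM (SD, n = 3 each). The log2 difference was 0.03 ± 0.51 (SE), with a 95% interval from -1.14 to 1.19 (adjusted p = 0.968, edgeR, Benjamini-Hochberg). Without unbound replicate 3 it was -0.24. Its sign turned in 12 of 17 alternative fits.

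Ucn3 had the widest spread of the tested members. It lies on chromosome 13 (3940688 to 3945349, minus strand). Its level was 2.26, 0.868 and 0.422 CPM in IP replicates 1 to 3 and 1.18, 1.05 and 0.120 CPM in unbound replicates 1 to 3. IP replicate 1, with 95 reads, was the highest of all, and unbound replicate 3, with 5 reads, the lowest. The highest level was 5.35 times the lowest within IP and 9.82 times within unbound RNA. The coefficient of variation was 81% and 73.8%, where counting alone gives 14.6% and 18.5% and the median tested gene had 16.8% and 17.8%. The log2 difference of 0.60 ± 0.84 (SE; 95% interval -1.32 to 2.52) did not pass (adjusted p = 0.587, edgeR, Benjamini-Hochberg). Leaving out either of 2 libraries lowered the difference to near or below 0: without IP replicate 1 it was -0.27, and without unbound replicate 3 it was 0.09.

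Ucn was at the limit of detection in 5 of the 6 libraries. It lies on chromosome 5 (31138063 to 31138829, minus strand). It had 0, 0 and 1 reads in IP replicates 1 to 3 and 0, 5 and 47 reads in unbound replicates 1 to 3. Unbound replicate 3 thus held 88.7% of its 53 reads, at 1.13 CPM with a counting interval from 0.828 to 1.499 CPM (exact Poisson, 95%). A library with 0 reads allows a level of up to 0.0713 CPM in IP replicate 1, 0.0964 CPM in IP replicate 2 and 0.0752 CPM in unbound replicate 1 (3 reads, a limit on 1 side only, where the interval before it has 2 sides). Such intervals and limits cover counting error only. The library with the Ucn reads is the one in which midbrain and hindbrain markers were high. Slc6a3, the dopamine transporter, stood at 49.8 CPM there, against 4.16 and 0.669 CPM in unbound replicates 1 and 2, and Slc6a4, the serotonin transporter, at 12.1 CPM, against 0 and 0.0291 CPM. The part of midbrain tissue in the Ucn reads was not tested. With no filter on low counts Ucn passed as lower in IP (adjusted p = 0.0410, edgeR, Benjamini-Hochberg), and without unbound replicate 3 it did not (adjusted p = 0.317, the same edgeR test). The remaining ligand of the family, Ucn2 (urocortin 2), had 0 reads in every library, with a limit of 0.0964 CPM in the shallowest.

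**Figure D2:**
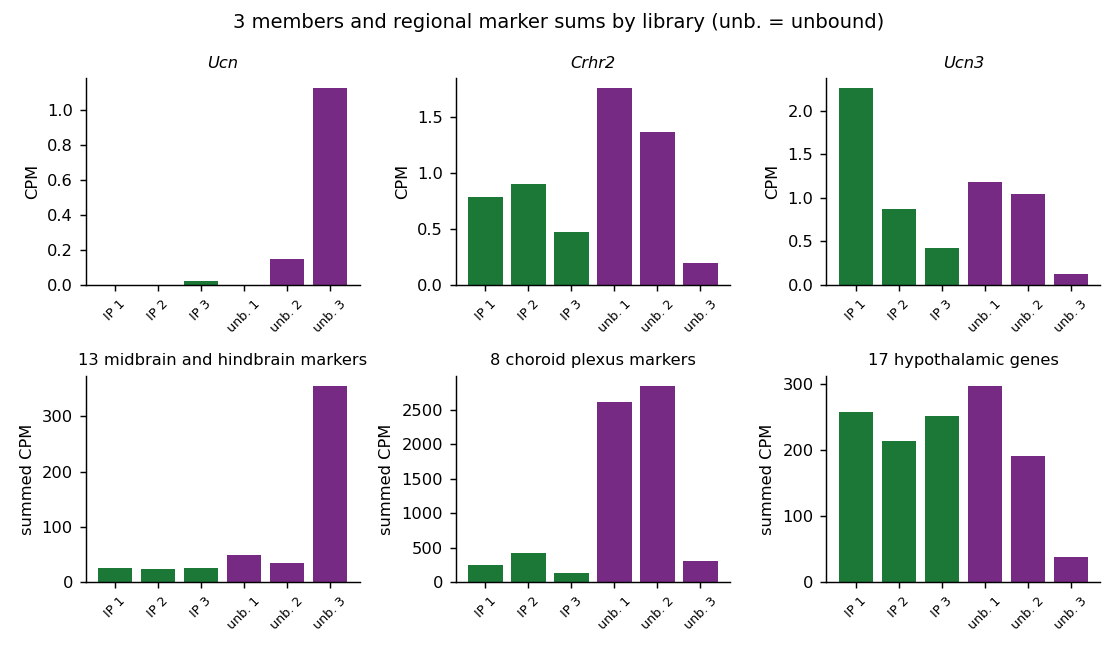
Top row, level of Ucn, Crhr2 and Ucn3 in each library (CPM). Bottom row, summed CPM of 13 midbrain and hindbrain markers, 8 choroid plexus markers and 17 hypothalamic genes in the same libraries. Unbound replicate 3 is the highest for Ucn and the midbrain sum (355 CPM) and the lowest for Crhr2, for Ucn3 and for the hypothalamic sum (38.2 CPM).

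Of the receptors, Crhr1 varied less between libraries. It lies on chromosome 11 (104132855 to 104175523, plus strand). Its level was 4.02, 3.50 and 2.78 CPM in IP replicates 1 to 3, from 169, 109 and 125 reads, and 2.86, 4.22 and 4.53 CPM in unbound replicates 1 to 3. IP replicate 3 and unbound replicate 1 were the lowest, and unbound replicate 3, where Crh and Ucn3 had their lowest unbound levels, was the highest. The log2 difference was -0.17 ± 0.29 (SE; 95% interval -0.83 to 0.49; adjusted p = 0.653, edgeR, Benjamini-Hochberg). Without unbound replicate 3 it was -0.05. Within pairs of the same replicate number it was 0.49, -0.27 and -0.71 for numbers 1 to 3, so the pairs went both ways.

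Crhr2 was the scarcer receptor. It lies on chromosome 6 (55090049 to 55133016, minus strand). Its level was 0.784, 0.900 and 0.467 CPM in IP replicates 1 to 3 and 1.75, 1.37 and 0.192 CPM in unbound replicates 1 to 3. Unbound replicates 1 and 2 lay above every IP library, and unbound replicate 3, with 8 reads, lay below every IP library. The log2 difference of -0.62 ± 0.73 (SE; 95% interval -2.27 to 1.03) did not pass (adjusted p = 0.511, edgeR, Benjamini-Hochberg). Without unbound replicate 3 it was -1.14 (adjusted p = 0.0830, the same edgeR test), and without unbound replicate 1 it was -0.11. Choroid plexus is a known site of Crhr2 in rodents. Its 8 markers summed to 257, 431 and 128 CPM in IP replicates 1 to 3 and to 2615, 2848 and 304 CPM in unbound replicates 1 to 3, and 0 of the 8 were absent from all libraries. In unbound replicates 1 and 2 most of the sum was Ttr (transthyretin), at 1961 and 2156 CPM. In unbound replicate 3 Ttr was at 30.7 CPM, and most of the sum was Enpp2, another of the 8, at 231 CPM. Unbound replicate 3 was the lowest unbound library for 7 of the 8 markers and the highest for Otx2, at 32.7 CPM against 11.8 and 14.0 CPM. The part of choroid plexus RNA in the Crhr2 reads was not tested.

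The ratio of the receptors within a library does not depend on scaling. Per kilobase of merged exons Crhr1 stood 10.6, 8.09 and 12.4 times above Crhr2 in IP replicates 1 to 3, and 3.39, 6.41 and 49.1 times above it in unbound replicates 1 to 3. The 3 IP ratios were close together and lay above those of unbound replicates 1 and 2, but below that of unbound replicate 3, so the fractions overlapped. These ratios depend on the gene length used, since Crhr2 has 9 annotated transcripts, whose merged exons span 5115 bases against 2924 bases for the longest transcript.

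Crhbp had the highest level per length of the 6 members in every library. It lies on chromosome 13 (95431371 to 95444924, minus strand). Its level was 12.2, 13.2 and 11.6 CPM in IP replicates 1 to 3, from 513, 412 and 522 reads, and 8.82, 11.8 and 6.52 CPM in unbound replicates 1 to 3. IP was the higher fraction in 3 of 3 same-numbered pairs, by 0.47, 0.17 and 0.83 on the log2 scale. The groups overlapped all the same, because unbound replicate 2 lay just above IP replicate 3. The means were 12.3 ± 0.83 CPM and 9.04 ± 2.63 CPM (SD, n = 3 each). The log2 difference of 0.45 ± 0.23 (SE; 95% interval -0.08 to 0.98) did not pass (adjusted p = 0.145, edgeR, Benjamini-Hochberg). It was 0.26 without unbound replicate 3, and -0.07 under pan-neuronal scaling, which shifted all genes by a median of -0.52. The IP libraries were alike, with a coefficient of variation of 6.73% against 16.8% for the median tested gene, while the unbound libraries had 29.1% against 17.8%.

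**Figure D3:**
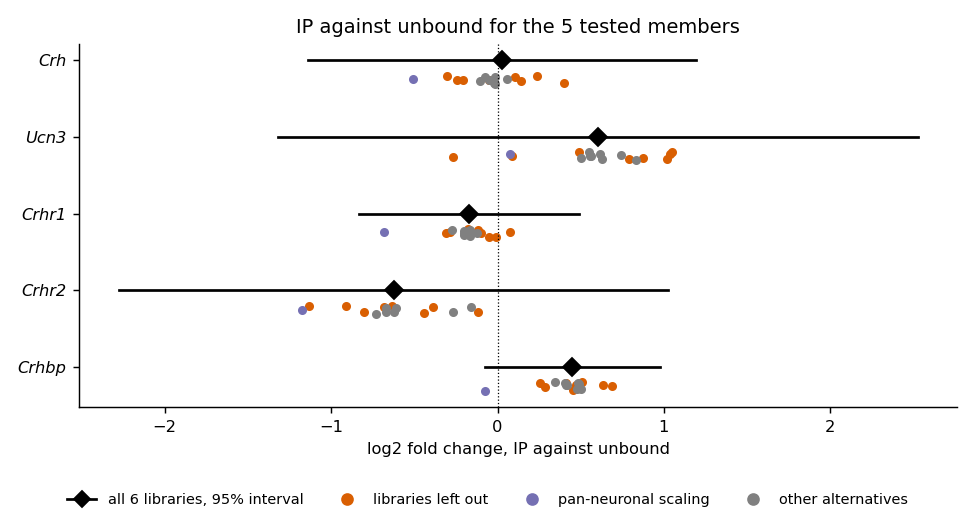
Log2 fold change of IP against unbound for the 5 tested members. Diamonds with lines give the value over all 6 libraries with its 95% interval, and dots below them the values under the alternative fits. Every interval spans 0, from the widest for Ucn3 (-1.32 to 2.52) to the narrowest for Crhbp (-0.08 to 0.98).

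Levels of different genes were compared per kilobase of merged exons. In IP the order was Crhbp (6.86 ± 0.46 CPM per kilobase), Crhr1 (1.40 ± 0.25), Crh (1.12 ± 0.56), Ucn3 (0.80 ± 0.65), Crhr2 (0.14 ± 0.04) and Ucn (0.015 ± 0.025, SD, n = 3). Crhbp lay above all other members in each IP library, while Crhr1, Crh and Ucn3 overlapped with their neighbours in this order. The IP levels of Ucn3 did not overlap with those of Crhr2, nor those of Crhr2 with those of Ucn. In unbound RNA Crhbp (5.02 ± 1.46 CPM per kilobase) again came first without overlap, and Crhr1 (1.57 ± 0.36) and Crh (1.10 ± 0.37) followed and overlapped. Ucn (0.84 ± 1.22), Ucn3 (0.53 ± 0.39) and Crhr2 (0.22 ± 0.16) overlapped too, and the place of Ucn came from unbound replicate 3 alone, at 2.24 CPM per kilobase. With the longest transcript as length Crhr2 was at 0.25 in IP and 0.38 in unbound RNA, and the order was the same, but the IP levels of Ucn3 and Crhr2 then overlapped. On this scale RNA of Crhbp was 4.58 to 12.8 times that of Crh in IP and 3.59 to 5.39 times in unbound libraries, and the fractions overlapped. Protein and peptide were not measured.

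**Figure D4:**
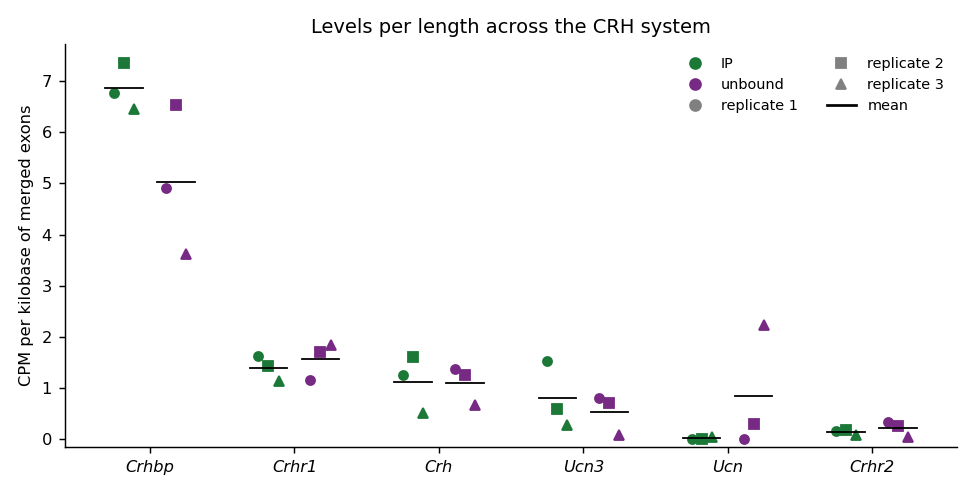
Level per length (CPM per kilobase of merged exons) of the 6 genes in each library. Green is IP, purple unbound, symbols mark the replicate number and black lines the mean of 3 libraries. Crhbp stands above the rest at 6.86 in IP and 5.02 in unbound RNA, and the Ucn mean in unbound RNA rests on replicate 3, at 2.24.

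The libraries numbered 3 were low for most of the system in both fractions. All 5 tested members had their lowest IP level in replicate 3, as did 35.4% of all tested genes. Crh, Crhr2, Crhbp and Ucn3 also had their lowest unbound level in replicate 3, which 32.0% of tested genes had. Both held for 4 of 5 members and for 15.2% of tested genes. The members share these libraries and are not independent counts.

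The genes whose profile over the 6 libraries was most like each member were sought among 12717 tested genes with a mean of at least 1 CPM, by the root mean square difference of mean-centred log2 CPM. For Crhbp these were Pcdhb6 (0.06), Cadps2 (0.07) and Chrm3 (0.07), and for Crhr1 they were Kcnn1, Grik1 and Srbd1 (0.09 each). Crhr2 was nearest to Klf16 (0.15), Sostdc1 (0.15) and Fgl1 (0.20), and Crh to Sema5b (0.15), Slc30a1 (0.16) and Cers6 (0.16). Ucn3 had no close match, with Tmem158 at 0.42, Sstr4 at 0.46 and Sema3a at 0.50. Sostdc1 was at 15.1, 13.5 and 2.04 CPM in unbound replicates 1 to 3. This step is like that of Crhr2, which follows from the choice of Sostdc1 by likeness. With any 1 library left out, between 0 and 3 of a member's 3 nearest genes stayed the nearest 3, so the names depend on single libraries. Among the members themselves this difference was smallest between Crhbp and Crhr1 (0.49) and largest between Crhr1 and Ucn3 (1.26). A small difference need not mean a shared pattern. In unbound replicate 3 Crhr1 had its highest level (4.53 CPM) and Crhbp its lowest (6.52 CPM).

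Counts on lists of related genes are read against the shares over all genes tested, 21.1% higher and 23.2% lower with a median of -0.01. These shares belong to the main fit. Under pan-neuronal scaling 806 of all 16991 genes tested were higher and 7078 lower. With the lane 2 libraries alone 1297 of 17320 were higher and 2538 lower. In the main fit 12 of the 20 pan-neuronal markers rose and 1 fell (60% and 5%), with a median of 0.55. The part of neuronal RNA in the rises of these lists was not tested. Of the 5 factors listed for CRH neurons 4 rose and 0 fell (80% and 0%), with a list median of 2.09. Sim1 and Otp are also among the 17 regional genes of the hypothalamus summed above, so the list does not single out CRH neurons. Sim1 rose from 2.83 ± 1.03 to 44.2 ± 9.64 CPM, a log2 change of 3.96 ± 0.30 (SE; adjusted p = 8.9e-05, edgeR, Benjamini-Hochberg) with no overlap between the fractions. Otp (3.63) and Sim2, a relative of Sim1 (2.09), rose as well. Arnt2, the partner of Sim1 in DNA binding, rose by 0.41, a call lost under library-size and pan-neuronal scaling (0.31 and -0.11) and without IP replicate 2 or unbound replicates 1 or 2 (0.38 to 0.46). Pou3f2, which activates Crh, went the other way (-0.51) and did not pass (adjusted p = 0.108, edgeR, Benjamini-Hochberg). Its IP levels, 15.7 to 21.0 CPM, all lay below its unbound levels, 21.1 to 36.7 CPM. With the lane 2 libraries alone 2 of the 5 rose, and under pan-neuronal scaling 3 rose and 1, Pou3f2, fell. The 95% interval of Crh, up to 1.19, lies below those of Sim1 (from 3.28) and Otp (from 2.82) but overlaps that of Sim2 (from 1.05). The difference between genes was not tested.

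Of 20 genes of the cyclic AMP path, 8 rose and 2 fell (40% and 10%), with a median of 0.39. Gnas, which encodes the Gs alpha subunit, rose from 1850 ± 384 to 4243 ± 166 CPM (log2 1.20). The kinase subunit genes Prkaca (1.21), Prkar2a (1.05) and Prkar1b (0.87) rose too, while Crtc2, a CREB coactivator linked to Crh transcription, fell by 0.83 and the cyclase gene Adcy1 fell by 1.38. Adcy1 did not pass without IP replicate 1 or without IP replicate 3 (-1.32 and -1.17). Pan-neuronal scaling left 4 rises and 3 falls and turned the median to -0.13. The counts were 9 and 3 without unbound replicate 3, 10 and 4 without the third pair, and 5 and 2 with the lane 2 libraries alone, and 1 fell without IP replicate 1 or 3.

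Of 16 genes of glucocorticoid feedback, 3 rose and 4 fell (18.8% and 25%), with a median of -0.09, close to the 21.1%, 23.2% and -0.01 over all genes tested. Nr3c1, the glucocorticoid receptor, fell by 0.95 on the log2 scale, with 132 ± 19.9 CPM in unbound libraries and 68.4 ± 6.69 CPM in IP libraries, and Nr3c2, the mineralocorticoid receptor, fell by 1.06. Sgk1, a kinase gene induced by corticosteroids, fell by 1.81, and Hsd11b1, whose enzyme regenerates active corticosteroid, by 3.27. Sgk1 and Hsd11b1 are also made by glia. Markers of oligodendrocytes summed to 341 to 572 CPM in IP and 3655 to 7018 CPM in unbound RNA, and those of astrocytes to 518 to 783 and 1987 to 2197 CPM, over 10 genes each of which 0 were absent from all libraries. The part of glial RNA in these falls was not tested. Hsp90aa1 (0.75), a chaperone of the receptor, and Sik1 (0.65), a kinase that restrains Crtc2, rose. Pan-neuronal scaling gave 806 rises and 7078 falls over all 16991 genes tested. Under it 0 of the 16 rose and 11 fell, and neither Hsp90aa1 nor Sik1 passed (0.24 and 0.12). The rises were 1 without unbound replicate 2, where Sik1 was at 0.56 and did not pass, and 0 with the lane 2 libraries alone.

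Of 11 genes of peptide maturation 5 rose and 0 fell (45.5% and 0%), with a median of 0.61. Pcsk1, the convertase that cuts prohormones, rose by 1.53, from 9.08 ± 2.20 to 26.2 ± 7.72 CPM, and Pam, which amidates peptides such as CRH, rose by 1.22. Pcsk1n (1.10) and Scg2 (1.25), a convertase inhibitor gene and a granin gene, rose. Scaling on pan-neuronal markers ended both calls (0.58 and 0.72) and left 2 rises. The lane 2 libraries alone also gave 2 rises.

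Of the 10 other genes of the stress axis 6 were tested, and 2 rose and 0 fell (33.3% and 0%), with a median of -0.06. These were Adcyap1 (2.95), which encodes the peptide PACAP, and the vasopressin receptor gene Avpr1a (1.94). Avpr1a did not pass without IP replicate 1, without unbound replicate 2 (1.66 and 1.79), under pan-neuronal scaling (1.39) or with the lane 2 libraries alone (1.80). Without unbound replicate 3 its value went to 1.57, and without unbound replicate 1 to 2.70. Avp, the partner of CRH at the pituitary, stood at 5.25, 6.53 and 0.778 CPM in IP and at 56.0, 38.3 and 0.072 CPM in unbound replicates 1 to 3. It did not pass with all libraries (-2.92), but without unbound replicate 3 it was 1 of 2 genes of this list that fell (-3.53, adjusted p = 0.00426, edgeR, Benjamini-Hochberg). Mc2r, the corticotropin receptor, had 0 reads in all 6 libraries. The 10 markers of the anterior pituitary, whose corticotrophs also make Crhr1, summed to between 0.225 and 0.832 CPM in IP and between 1.05 and 2.48 CPM in unbound libraries, with Fshb at 0 throughout.

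The receptors of the same class as Crhr1 and Crhr2, the class B or secretin family, had calls in both directions. Of 13 listed, 9 were tested, of which 2 rose and 1 fell (22.2% and 11.1%), with a median of -0.23. Over all genes tested the shares were 21.1% and 23.2%, so the rises were near the share over all genes. Glp1r (1.98) and Calcr (2.77) rose, the receptors of GLP-1 and calcitonin, and Calcrl fell by 1.35. The Calcrl call was lost without IP replicate 2, IP replicate 3 or unbound replicate 1 (-1.42, -1.01 and -1.01), and with the lane 2 libraries alone 0 of the 9 passed. Adcyap1r1, the PACAP receptor, stood at 136 ± 31.8 and 107 ± 1.07 CPM (0.35) and did not pass with all libraries, but rose without IP replicate 3 (0.54). Without unbound replicate 3 the list had 2 rises and 2 falls and a median of 0.32.

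**Figure D5:**
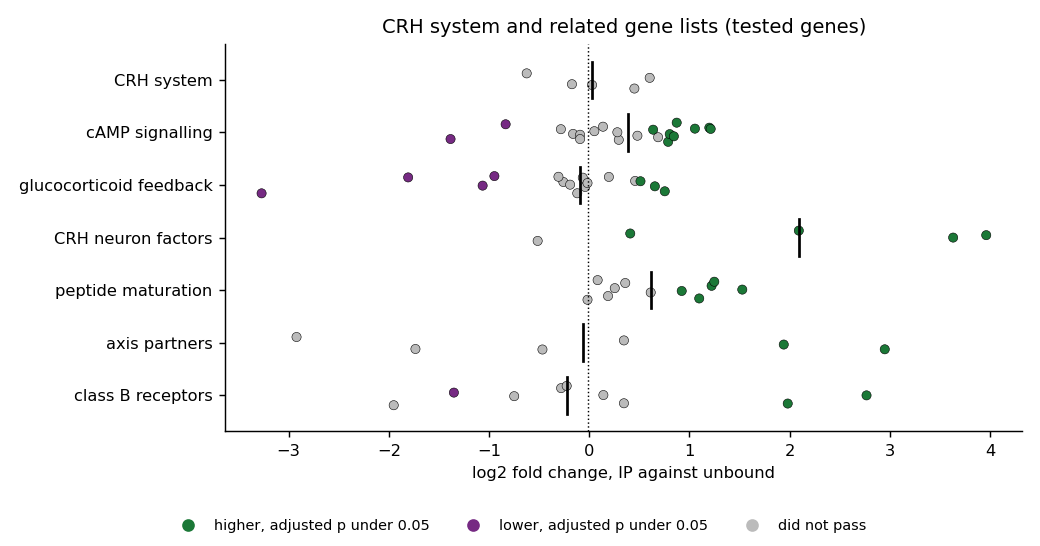
Log2 fold change of IP against unbound for each tested gene of the CRH system and of 6 related lists. Green marks genes higher and purple genes lower at an adjusted p under 0.05, black bars are list medians and the dotted line the median of all tested genes (-0.01). The 5 CRH system genes lie between -0.62 and 0.60 with none coloured, while 4 of the 5 genes listed as CRH neuron factors are green.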

How the data were processed

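The deposited files hold raw read counts per gene symbol, 1 file for each of 6 RNA-seq libraries (3 IP, 3 unbound). Per the submitters' processing notes, STAR 2.0.0e, HTSeq and the mm10 assembly were used. The annotation is, like the strand setting, not given in the sources used here. Of all reads listed, 43.8% to 45.0% in IP and 31.8% to 32.9% in unbound libraries aligned to several places, and 1.58% to 1.64% and 7.08% to 9.02% were ambiguous between features. These, the reads in no feature and the entry for unknown features name no gene and stayed out of library sizes and tests. No gene of GENCODE M21 (GRCm38, the same assembly as mm10) overlaps any of the 6 members. Exon lengths come from it, promoter windows from RefSeq.

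Testing used edgeR 4.0.16 under R 4.3.3 (TMM scaling, filterByExpr with a minimum count of 10 and total of 15, robust quasi-likelihood fit on group alone, Benjamini-Hochberg adjustment). SE is the log2 fold change over the square root of F. The test was tested on simulated data. Alternatives were other scalings, count filters, DESeq2 1.42.0, limma-voom (limma 3.58.1), replicate block, lane covariate and libraries left out. The replicate numbers were taken as pairs, because deviations of same-numbered libraries from their group means correlated over genes at 0.14, 0.16 and 0.21. Between differently numbered libraries the correlations were -0.17 to 0.04. The labels do not say that same-numbered libraries come from the same animals, and the correlations do not show it. Lane follows the numbers (lane 4 for replicate 2, lane 2 for the rest), and the main test does not use the pairing. Members, lists and the rule for named genes (of each list the 4 with the smallest adjusted p and up to 2 of the rarer direction, plus the 3 genes most like each member) were chosen with earlier results of these data known. Marker genes named singly, Hcrt, Slc6a3, Slc6a4, Ttr, Enpp2, Otx2, Fshb and Mc2r were chosen after their values were seen. So was Pou3f2, which the rule did not name.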

Additional observations from a re-analysis of the deposited data

How the results depend on the processing

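Under 17 alternative fits 0 of the tested members passed, apart from Ucn with no count filter. Crhr2 was not tested under the filter of 1 CPM in 3 libraries. The sign of Crh turned to -0.014 with median-ratio size factors, -0.076 with library size alone, -0.51 with pan-neuronal scaling, -0.025 with the filter of 1 CPM, -0.014 in DESeq2, -0.11 in limma-voom, -0.050 with the replicate number as a block, -0.019 with lane as covariate and -0.20 with the lane 2 libraries alone. Crhr1 turned to 0.076 without the third pair and Crhbp to -0.074 with pan-neuronal scaling. With 1 library left out at a time, Crh lay between -0.30 and 0.40, Crhr1 between -0.31 and -0.01, Crhr2 between -1.14 and -0.11, Crhbp between 0.26 and 0.69 and Ucn3 between -0.27 and 1.04. The replicate block changed no call on a member (Crhr1 -0.16, Crhr2 -0.27, Crhbp 0.49, Ucn3 0.74) and no count of the 6 lists of related genes by over 1.5 times, while the count of midbrain and hindbrain markers lower in IP went from 3 to 0. The count of members lower in IP was 1, Ucn, with no count filter, and 0 when unbound replicate 3 was also left out, a fit chosen after the data were seen. Over all genes pan-neuronal scaling gave 806 higher and 7078 lower, against 3586 and 3943, and the lane 2 libraries alone 1297 and 2538. Arnt2 turned to -0.11 and Adcyap1r1 to -0.18 with pan-neuronal scaling. Where a setting is not said to change the number of samples or genes, the cause was not tested. Depth limits the scarce members: the highest count in any library was 0 for Ucn2, 47 for Ucn, 70 for Crhr2, 72 for Crh and 95 for Ucn3.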
